A study of Mus musculus with 11 samples.

Results

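The myelin genes Mbp, Mog, Mag, Mobp, Cnp, Cldn11, Mal, Ugt8a and Opalin were followed through RNA-sequencing libraries of mouse ventral striatum. The tissue was the shell of the nucleus accumbens, the outer zone of that nucleus. The set was fixed by name as genes of mature oligodendrocytes, and each symbol was matched to its Ensembl identifier in GENCODE M21. All 9 were found among the 52550 genes of the count table, and all 9 passed the filter on low counts (at least 1 CPM, the count scaled to library size, in 3 libraries and a median of at least 10 counts).

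Poly(A) RNA was taken from tissue punches of 300 µm frozen sections. The mice were 8 weeks old, and their mixed background is given as CBA/C57BL6J/129svEmx. The series concerns reduced signalling by the retinoic acid receptor Rarβ in R6/1 mice, a transgenic model of Huntington disease. The series names 12 samples, 1 of which failed quality control, and 11 libraries, 1 per animal, were analysed here. The design numbers the failed sample 10, and the library of animal m44 carries a code with the number 10. Whether both numberings are the same is not given, so m44 was kept, and without it the same count of members, 7, passed the main test. The labels give each library an animal name and a code and no genotype, so no library could be placed in a group and groups were not compared.

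Myelin is the multilayered membrane that oligodendrocytes wrap round axons, and it speeds the conduction of nerve impulses. Its compact layers are held together by proteins such as myelin basic protein, its lipids are rich in galactosylceramide and sulfatide, and separate proteins sit at its outer face, at the inner wrap beside the axon and at the junctions between layers. The transcription factors SOX10 and MYRF are known to switch on these genes as the cells mature. In the striatum, the accumbens included, myelinated fibres run in bundles through the grey matter.

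Library totals ran from 24840981 to 48825783 counts, with a median of 36252983, and 3 counts, the detection floor used here, corresponded to 0.0619 to 0.133 CPM. The lowest count of any member in any library was 283, for Opalin, with a 95% Poisson interval of 251 to 318 that covers counting error only, since PCR copies are not independent molecules. Mitochondrial genes took 2.90 to 7.21% of the counts. The labels name no sequencing batch. All 9 members were detected in all 11 libraries, as was Ppp1r1b, a marker of striatal projection neurons, at 438 to 1352 CPM, and Slc17a7, a marker of cortical glutamatergic neurons, at 636 to 2118 CPM. Libraries differed in the balance of long and short transcripts: for each library the shortest 10% of genes were set beside the longest 10%, and the difference of their median log2 deviations (long minus short) ran from -0.64 in m61 to 0.43 in m57 and m115.

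The promoters of 4 members are shown first, because they range from 6 copies of a SOX-type motif in Mobp to none in Ugt8a. Cldn11, Mal and Mog, whose windows are not shown, also held no SOX-type motif. Over the libraries, Pearson's r of log2 levels with Mbp was 0.95 for Cldn11 and for Mal, 0.92 for Mog and 0.43 for Ugt8a. A link between motifs and levels was not tested. Sequences are from RefSeq (GRCm38.p6), 5′ to 3′ on the strand of the gene, and end at the last base before the transcript start or, for Mobp, before the GENCODE gene begins. Mobp is at chr9:120149492-120149706 on the plus strand, Mag at chr7:30914923-30915172 on the minus strand, Opalin at chr19:41077114-41077363 on the minus strand and Ugt8a at chr3:125938653-125938902 on the minus strand. Capitals mark ACAAAG, a form of the SOX motif, or its reverse complement CTTTGT, and CTGGCAC, a form of the MYRF motif.
Mobp: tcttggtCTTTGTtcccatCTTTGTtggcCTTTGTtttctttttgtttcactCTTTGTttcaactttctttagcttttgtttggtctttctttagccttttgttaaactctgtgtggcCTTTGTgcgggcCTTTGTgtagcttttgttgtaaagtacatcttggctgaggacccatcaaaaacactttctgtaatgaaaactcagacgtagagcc
Mag: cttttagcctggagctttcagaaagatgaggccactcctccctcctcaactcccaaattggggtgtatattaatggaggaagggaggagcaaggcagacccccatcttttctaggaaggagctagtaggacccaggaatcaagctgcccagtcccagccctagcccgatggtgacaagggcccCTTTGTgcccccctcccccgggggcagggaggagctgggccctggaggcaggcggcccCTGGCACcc
Opalin: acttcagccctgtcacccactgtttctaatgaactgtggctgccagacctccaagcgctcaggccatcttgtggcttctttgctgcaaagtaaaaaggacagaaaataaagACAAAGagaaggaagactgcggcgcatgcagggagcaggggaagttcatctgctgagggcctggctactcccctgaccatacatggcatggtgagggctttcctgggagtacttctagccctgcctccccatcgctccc
Ugt8a: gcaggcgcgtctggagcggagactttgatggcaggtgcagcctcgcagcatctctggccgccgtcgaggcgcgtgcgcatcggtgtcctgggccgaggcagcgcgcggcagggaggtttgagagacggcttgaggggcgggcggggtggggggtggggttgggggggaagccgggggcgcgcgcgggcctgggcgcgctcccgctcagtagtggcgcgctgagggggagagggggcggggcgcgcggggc

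The 250 bases upstream of each RefSeq start were searched on both strands for the SOX forms ACAAAG and ACAATG, the MYRF forms CTGGCAC and CTGGTAC, and the TATA box TATAAA, and no match overlapped a match of another motif. RefSeq gave 10 such windows for 8 of the members, and Mbp had none. Mobp held 6 copies of ACAAAG, all on the minus strand relative to the gene, whereas 16.5% of 32851 RefSeq promoters held any. Opalin and Cnp held 1 copy each of ACAAAG, and so did 2 of the 3 windows of Mag. CTGGCAC stood in the window of Cnp and in the same 2 windows of Mag, against 4.19% of all promoters, and CTGGTAC stood in that of Mog, against 1.83%. Those 2 windows of Mag overlap and share 1 ACAAAG site and 1 CTGGCAC site. ACAATG, in 10.7% of all promoters, and TATAAA, in 12.4%, were in no window. The windows of Cldn11, Mal and Ugt8a held none of these letters. The Ugt8a window was 76.8% G or C with 32 CG pairs, against medians of 52.4% and 6 over all promoters. Among the 10 windows, that of Mobp had the lowest share of G or C, 40.8%. A match or its lack describes these windows and shows nothing of binding.

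Mbp encodes myelin basic protein, which draws the inner faces of the membrane together. It lies on the plus strand at chr18:82475146-82585637 (mm10) and was the most abundant member. Its level was 2178 CPM in m83, 1810 in m61, 1603 in m57, 1584 in m74, 1530.1 in m89, 1393 in m44, 1147 in m101, 1064 in m73, 991 in m49, 950.8 in m115 and 836 in m47. The animals therefore formed a graded series with no separate cluster, and the highest was 2.60 times the lowest. The libraries with code numbers 9 to 14 held ranks 3 (m57), 6 (m44), 2 (m61), 5 (m89) and 1 (m83). Those numbered 1 to 7 held ranks 7 to 11, except m74, numbered 5, at rank 4. What the code numbers stand for is not given, and their relation to the order was not tested. In bulk RNA, fewer oligodendrocytes in a punch and less myelin RNA in each of them cannot be told apart.

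Mobp encodes a small basic protein of compact myelin and lies on the plus strand at chr9:120149707-120181484. Its lowest level was 285 CPM in m115, its median 472 CPM and its highest 812 CPM in m83. Animal m44, at rank 6 from the top for Mbp, was at rank 2 for Mobp, and m83 was again on top. An unnamed transcript on the same strand, Gm38642, shares 1.15% of the exon bases of Mobp, and reads there cannot be assigned with certainty.

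Mal encodes a membrane protein of lipid-rich domains in compact myelin and lies on the minus strand at chr2:127633226-127656695. Its lowest level was 81.2 CPM in m47, its median 145 CPM and its highest 200.2 CPM in m83. Opalin encodes a transmembrane glycoprotein found in central and not in peripheral myelin, at chr19:41061710-41077113 on the minus strand. It had the lowest median of the members in CPM. Its lowest level was 8.85 CPM in m47, its median 15.5 CPM and its highest 28.4 CPM in m83, a ratio of 3.21.

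Mog encodes a protein of the immunoglobulin family at the outermost face of the sheath, well known as an autoantigen, and lies on the minus strand at chr17:37010743-37023398. Its lowest level was 28.6 CPM in m47, its median 37.7 CPM and its highest 64.5 CPM in m83, and its ratio of 2.25 was the narrowest of the members. Mag, at chr7:30899176-30914873 on the minus strand, encodes a sialic acid binding protein of the inner wrap that faces the axon. It was 68.4 CPM in m47, the lowest library, and 186 CPM in m83, the highest, with a median of 115.2 CPM. Animal m74 was at rank 2 for Mag and at rank 3 for Mog.

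Cnp encodes an enzyme of non-compact myelin that keeps cytoplasmic channels open, and lies on the plus strand at chr11:100574904-100591729. Its level was lowest in m47, at 136 CPM, and highest in m83, at 339 CPM, with a median of 212 CPM. Dnajc7, on the opposite strand, shares 4.23% of the exon bases of Cnp, and the strand setting of the counting is not given in the sources used here. Cldn11 encodes the claudin that builds the tight junctions between myelin layers, at chr3:31149920-31164324 on the plus strand. Its lowest level was 50.1 CPM in m49, its median 71.8 CPM and its highest 122 CPM in m83.

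Ugt8a encodes the enzyme that makes galactosylceramide, the main glycolipid of myelin, and lies on the minus strand at chr3:125865271-125938619. Its level was 34.9 CPM in m89, 34.1 in m57, 22.8 in m61, 21.5 in m73, 20.96 in m83, 18.9 in m115, 18.3 in m44, 17.9 in m47, 14.1 in m101, 14.1 in m74 and 11.2 in m49. Animal m83, at rank 1 for the 8 other members, was at rank 5 here, and m74, at ranks 2 to 6 elsewhere, was at rank 10. Animal m73, at ranks 8 to 10 elsewhere, was at rank 4. As a share of the Mbp level, Ugt8a ranged from 0.887% in m74 and 0.962% in m83 to 2.13% in m57 and 2.28% in m89.

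Per kilobase of exon the members spanned a wide range of levels, with a median over the 11 libraries of 165 CPM per kb for Mbp, 68.9 for Mobp, 58.2 for Cnp, 52.2 for Mal and 38.4 for Cldn11. Mag followed at 28.3 CPM per kb, Mog at 22.1, Opalin at 5.26 and Ugt8a at 4.16. Mbp exceeded Mobp, Mal exceeded Cldn11 and Mog exceeded Opalin in 11 of 11 libraries. Cldn11 exceeded Mag, and Mag exceeded Mog, in 10, while Mobp exceeded Cnp, and Cnp exceeded Mal, in 9. Opalin and Ugt8a, the lowest pair, could not be ordered: Opalin was the higher in 6 libraries of 11. Exon lengths are those of GENCODE M21 and take in every annotated isoform.

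**Figure D1:**
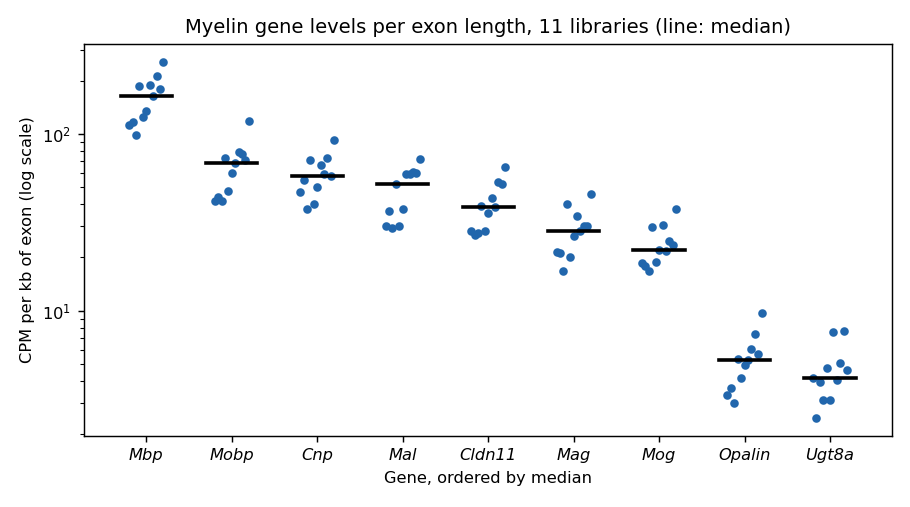
Levels of the 9 myelin genes per kilobase of exon (CPM per kb, logarithmic axis), with 1 point for each of the 11 libraries and a bar at the median. Medians run from 165 for Mbp to 4.16 for Ugt8a, and the points of Opalin and Ugt8a overlap.

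The members ranked the 11 animals in much the same order. Animal m83 was highest for 8 of 9 genes, and m89 was highest for Ugt8a. Animal m47 was lowest for 6 genes, m49 for Cldn11 and Ugt8a, and m115 for Mobp. Kendall's coefficient of concordance was 0.80 over the 9 genes. It is 1 when all genes rank the libraries identically and 0 when every library has the same sum of ranks. The coefficient was 0.90 without Ugt8a, a gene left out after its values were seen. The mean log2 deviation of the members from their medians ran from 0.64 in m83 to -0.60 in m47.

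**Figure D2:**
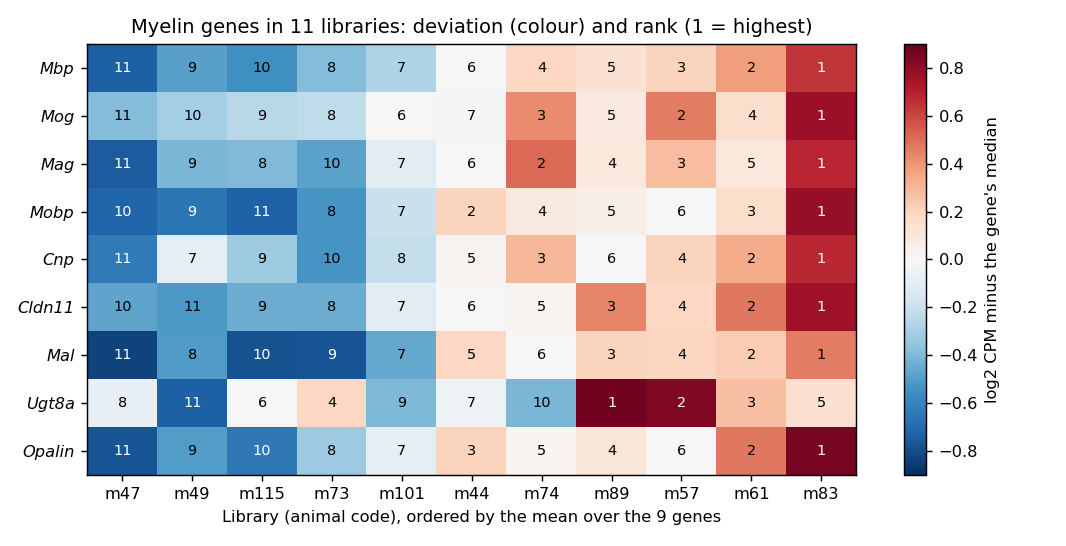
Deviation of each myelin gene from its own median (log2 of CPM + 0.5, colour scale) in the 11 libraries, with 1 gene per row and 1 animal per column. The 8 genes other than Ugt8a are highest in m83, whereas Ugt8a is highest in m89.

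The libraries differed more in these genes than in most. The biological coefficient of variation, the spread between libraries beyond counting error, had a median of 0.307 over the members and 0.201 over the 15373 genes tested. It was lowest for Mog at 0.257 and highest for Ugt8a at 0.348, with 33.4% and 17.5% of genes above these values. This spread holds genotype, animal, dissection and library preparation together.

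Between pairs of members, levels over the 11 libraries moved together in every pair that left out Ugt8a. For those 28 of the 36 pairs, Pearson's r on log2 CPM ran from 0.84 to 0.97 and Spearman's rho from 0.77 to 0.97, with unadjusted permutation p-values for r of 1e-05, the smallest that 100000 permutations can give, to 0.00145. The members were chosen with earlier results known, and Ugt8a was set apart after its values were seen. The p-values therefore describe single pairs and are no test of the set. When the 2 libraries that lay farthest from the first gene's median were left out, r ran from 0.69 to 0.98, and without m83 alone from 0.73 to 0.96. The highest r was that of Mobp and Opalin, 0.97 (permutation p = 1e-05), with rho of 0.97 and r of 0.94 without m83 and m115. Mog and Mag also gave r of 0.97 (permutation p = 1e-05), with rho of 0.95 and r of 0.98 without m83 and m57.

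The 8 pairs with Ugt8a were looser, with r from 0.18 to 0.53 and rho from 0.23 to 0.62. Their unadjusted permutation p-values ran from 0.0965 to 0.603 for r and from 0.0476 to 0.505 for rho. Against Mbp, r was 0.43 (permutation p = 0.191), rho was 0.45 (permutation p = 0.164), and r was 0.51 without m47 and m83. The closest partner of Ugt8a was Cldn11, with r of 0.53 (permutation p = 0.0965), rho of 0.62 (permutation p = 0.0476) and r of 0.51 without m83 and m49.

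**Figure D3:**
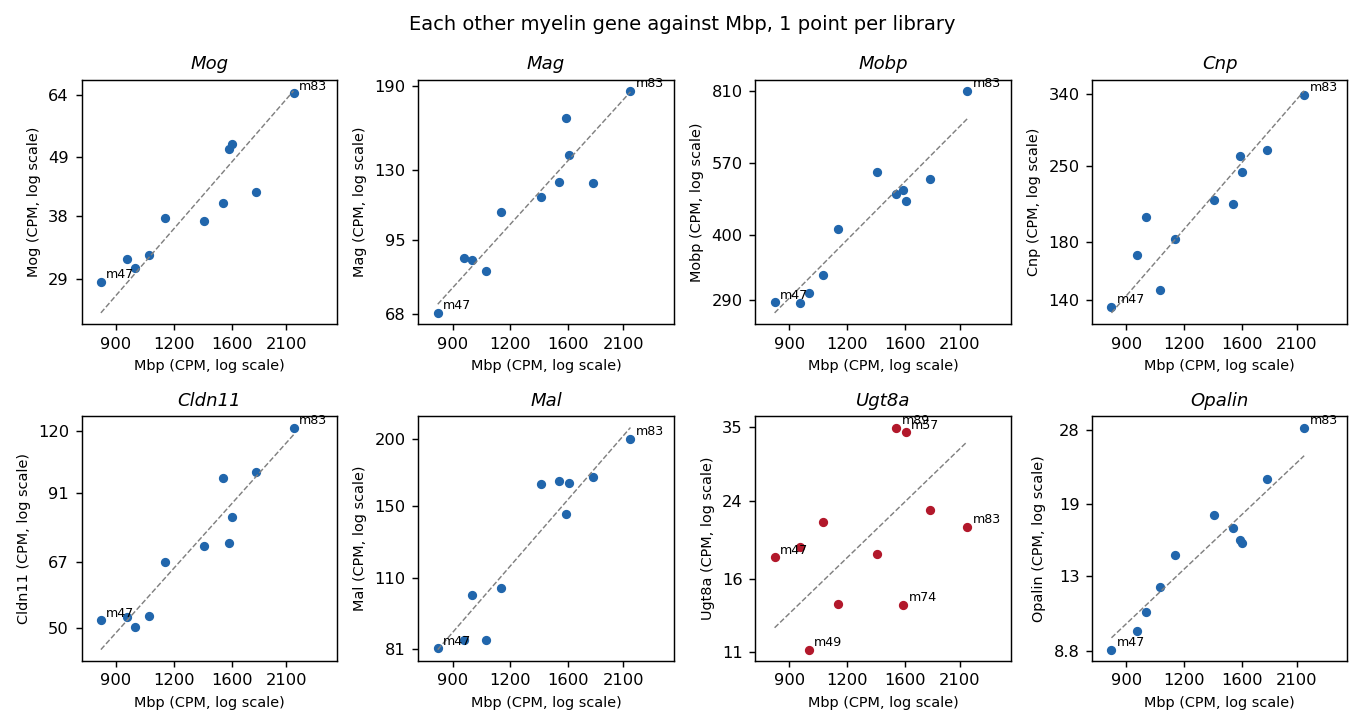
Level of each other myelin gene (log2 CPM, vertical axis) against Mbp (log2 CPM, horizontal axis) in 11 libraries, 1 point per library. The points lie along a line for Mog, Mag, Mobp, Cnp, Cldn11, Mal and Opalin and scatter for Ugt8a, with r of 0.43.

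To set the members beside the rest of the transcriptome, every gene was fitted on the log2 level of Mbp with edgeR's quasi-likelihood test, in which a slope of 1 means that a gene changed in proportion to Mbp. Of the 8 other members, 7 rose with Mbp at an adjusted p of at most 0.05 (Benjamini-Hochberg), against 0.390% of the 15372 genes tested. No member fell, against 0.0325% of genes. At an unadjusted p under 0.05, in either direction, 7 of the 8 passed, against 19.4% of all genes, and the counts at that level in the lists below are to be read against this share. By DESeq2, 7 of the 8 rose at an adjusted p of at most 0.05, against 3.21% of all genes. Here and in every list below, p-values set a slope against the spread between these libraries that the fit leaves over. Genes of one cell type are not replicates of each other. The members and the lists were chosen with earlier results of these data known, so the counts describe them and are no independent test of a set.

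Slopes were 1.11 ± 0.14 for Opalin, 1.06 ± 0.13 for Mal, 1.05 ± 0.13 for Mobp, 0.96 ± 0.13 for Mag, 0.96 ± 0.12 for Cldn11, 0.83 ± 0.12 for Cnp and 0.79 ± 0.13 for Mog (SE, 11 libraries). By edgeR the adjusted p was 0.00586 for Opalin, Mal, Mobp and Cldn11, 0.00798 for Mag, 0.0127 for Cnp and 0.0200 for Mog. The 95% interval held 1 for all 7 of these genes. For Ugt8a the slope was 0.53 ± 0.31, with an interval of -0.16 to 1.22 and an edgeR adjusted p of 0.343. That interval holds 0 and 1 alike, so a change in proportion to Mbp and no change both lay within the error.

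Leaving out single animals changed how many members passed. Without m83, the highest library, no gene of the transcriptome passed by edgeR, although 7 of the members had an unadjusted p under 0.05, against 1981 genes or 12.9% of all. The slopes of the members other than Ugt8a were then 0.71 to 1.13, and their edgeR adjusted p-values ran from 0.0658 to 0.149. Without m47, the lowest library, Mobp and Cldn11 passed. Without m115, Cnp and Mog were lost, and without m73, Mog was lost.

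The median slope of 35 other genes of mature oligodendrocytes was 0.62, beside -0.02 over all genes tested. By edgeR, 6 of the 35 rose with Mbp, against 0.390% of all genes, and none fell. Among them were Pllp, which encodes the proteolipid plasmolipin (0.81 ± 0.12), Aspa, which breaks down N-acetylaspartate (0.80 ± 0.16), Car2, a carbonic anhydrase (0.73 ± 0.13), Qdpr, which recycles tetrahydrobiopterin (0.72 ± 0.12), and Cryab, a small heat shock protein (1.00 ± 0.16). In all, 34 slopes of 35 were positive and 29 genes had an unadjusted p under 0.05, against 19.4% of all genes, and 21 rose by DESeq2, against 3.21%. Without m83 none passed, with 25 at an unadjusted p under 0.05, and without m115 or m47 none passed. Without m73 the count was 1 and without m57 it was 12.

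Other genes of this list did not pass the test. Trf, the iron carrier transferrin, had a slope of 0.91 ± 0.23 (edgeR adjusted p = 0.0918). Ermn, a cytoskeletal protein of late oligodendrocytes, had a slope of 0.39 ± 0.18 (edgeR adjusted p = 0.254). The 1 negative slope was that of Edil3, an extracellular matrix protein, at -0.48 ± 0.37 (edgeR adjusted p = 0.473).

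Among 11 genes of sphingolipid synthesis, the pathway of Ugt8a, 1 rose with Mbp by edgeR, against 0.390% of all genes, and none fell. An unadjusted p under 0.05 was found for 4, against 19.4% of all genes, and DESeq2 called 3, against 3.21%. The median slope was 0.12. Fa2h, which makes the 2-hydroxy fatty acids of myelin galactolipids, had a slope of 0.95 ± 0.17 (edgeR adjusted p = 0.0283), with levels from 10.4 CPM to 27.3 CPM. Gal3st1, which adds the sulfate that turns galactosylceramide into sulfatide and so acts just after Ugt8a, had a slope of 0.62 ± 0.16 (edgeR adjusted p = 0.0997). Cers2, the ceramide synthase of very long fatty acids, had a slope of 0.12 ± 0.15, and Ugcg, which glucosylates ceramide in place of galactosylating it, -0.23 ± 0.14.

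None of 13 transcription factors of the lineage rose or fell with Mbp by edgeR. An unadjusted p under 0.05 was found for 6, beside 19.4% of all genes, and DESeq2 called 3, against 3.21%. Nkx6-2 had the highest slope, 1.06 ± 0.22 (edgeR adjusted p = 0.0538). Sox10, required for the lineage and for myelin gene transcription, had a slope of 0.58 ± 0.16 (edgeR adjusted p = 0.110), and Myrf, the regulator of terminal differentiation, 0.47 ± 0.20 (0.238). Olig2, which specifies the lineage, had a slope of 0.24 ± 0.13 (edgeR adjusted p = 0.317). The lowest was that of St18, at -0.83 ± 0.42 (edgeR adjusted p = 0.287).

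None of 14 precursor genes passed by edgeR. The 3 at an unadjusted p under 0.05 were a share near the 19.4% of all genes. DESeq2 called 2 of the 14, against 3.21% of all genes, and the median slope of the list was 0.10. Pdgfra, the growth factor receptor of precursors, had a slope of -0.09 ± 0.22 (edgeR adjusted p = 0.841), and Cspg4, the NG2 proteoglycan, 0.06 ± 0.21 (0.895). Slopes of the 14 ran from -0.48 ± 0.30 for Vcan (edgeR adjusted p = 0.375) to 0.66 ± 0.17 for Cacng4 (0.0990). Of 13 tested genes of newly formed oligodendrocytes, 1 rose by edgeR, against 0.390% of all genes. It was Bcas1, at 0.71 ± 0.11 (edgeR adjusted p = 0.0148). In that list 1 gene had an unadjusted p under 0.05, DESeq2 called 1, and the median slope was 0.09. Enpp6, an early marker of differentiation, had a slope of 0.09 ± 0.28 (edgeR adjusted p = 0.879). Paranode and axon partner genes gave none of 11 by edgeR, with 2 at an unadjusted p under 0.05, a share near that of all genes, none by DESeq2, and a median slope of -0.01.

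**Figure D4:**
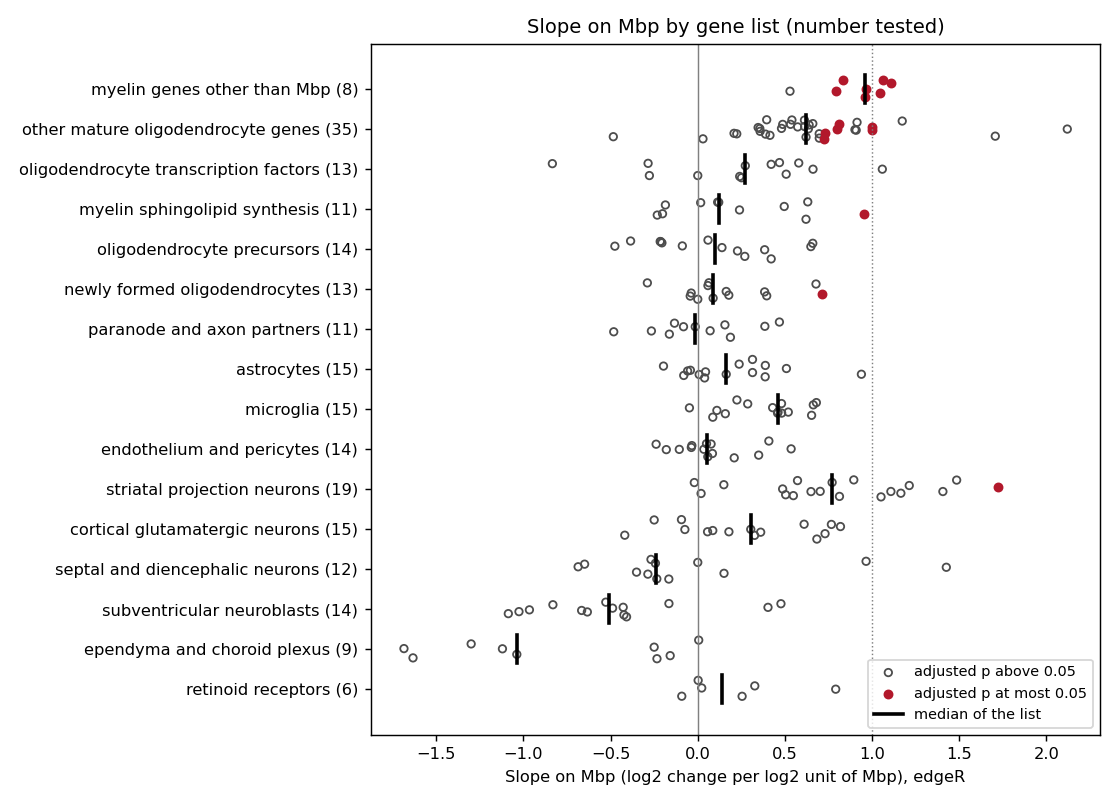
Slope on Mbp (log2 change per log2 unit of Mbp) of each tested gene, grouped by list, with filled points for an edgeR adjusted p of at most 0.05, open points above it, a bar at the median of a list, a solid line at 0 and a dotted line at 1. Medians are 0.96 for the other myelin members, 0.62 for 35 other mature oligodendrocyte genes, 0.10 for precursors and 0.77 for striatal projection neurons.

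The same fit was read for markers of other cells that a punch could hold. Of 19 genes of striatal projection neurons, 1 rose by edgeR, against 0.390% of all genes. It was Penk, the opioid peptide precursor, at 1.72 ± 0.33 (edgeR adjusted p = 0.0383). The median slope of the 19 was 0.77, beside 0.62 for the other mature oligodendrocyte genes. Ppp1r1b, the dopamine signalling protein DARPP-32, had a slope of 1.21 ± 0.25 (edgeR adjusted p = 0.0503). Of the 19, 14 had an unadjusted p under 0.05, against 19.4% of all genes, and DESeq2 called 8, against 3.21%. The mean log2 deviation of this list was 0.82 in m44, 0.65 in m83, 0.64 in m89, 0.61 in m57, 0.57 in m61, -0.16 in m115, -0.17 in m49, -0.21 in m101 and m47, -0.34 in m73 and -0.43 in m74. No library lay between -0.16 and 0.57. Animals m44, m83, m89, m57 and m61, above that gap, carry the code numbers 10, 14, 13, 9 and 12. Animal m74, lowest on this list, was above 0 for the myelin genes, at 0.13. The part of projection neurons in the result was not tested.

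Of all genes tested, 19.4% had an unadjusted p under 0.05 in this fit, and 3.21% rose by DESeq2. Astrocyte genes gave none of 15 by edgeR, with 6 at an unadjusted p under 0.05, 2 by DESeq2 and a median slope of 0.16, and microglial genes none of 15, with 7 at an unadjusted p under 0.05, 1 by DESeq2 and a median slope of 0.46. Endothelial and pericyte genes gave none of 14, with 2 at an unadjusted p under 0.05, none by DESeq2 and a median slope of 0.05. Cortical glutamatergic genes gave none of 15 by edgeR, with 5 at an unadjusted p under 0.05, 3 by DESeq2 and a median slope of 0.30. Septal and diencephalic genes gave none of 12 tested, with 4 at an unadjusted p under 0.05, 1 by DESeq2 and a median slope of -0.24. Neuroblast genes of the subventricular zone gave none of 14 by edgeR, with 4 at an unadjusted p under 0.05, none by DESeq2 and a median slope of -0.51. Ependymal and choroid plexus genes gave none of 9 tested, with 3 at an unadjusted p under 0.05, none by DESeq2 and a median slope of -1.04. Their mean log2 deviation was highest in m115, m47 and m49, at 1.29, 1.06 and 0.59, the 3 libraries lowest for Mbp, and next in m83, the highest for Mbp, at 0.48. The part of these other cells in the myelin levels was not tested.

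Retinoid receptors, the genes the series is about, gave none of 6 by edgeR. An unadjusted p under 0.05 was found for 1, a share near the 19.4% of all genes, and DESeq2 called 1, against 3.21%. Rarb had a slope on Mbp of 0.02 ± 0.21 (edgeR adjusted p = 0.959), with levels from 49.8 CPM to 101.2 CPM. Rxrg, the retinoid X receptor abundant in striatum, had a slope of 0.79 ± 0.16 (edgeR adjusted p = 0.0503), with levels from 35.3 CPM to 79.2 CPM.

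Depth, mitochondrial share and transcript-length balance were set against the log2 level of Mbp over the 11 libraries. For the long-minus-short transcript difference, r was -0.60 (permutation p = 0.0513, adjusted over the 3 measures 0.154), rho was -0.55 (permutation p = 0.0874, adjusted 0.262), and r was -0.42 without m47 and m83. Without m57, r was -0.76, with an adjusted permutation p of 0.0411. For the mitochondrial share, r was 0.25 (permutation p = 0.485, adjusted 0.728), rho was 0.09 (permutation p = 0.797, adjusted 0.947), and r was 0.24 without those 2 animals. For the total count, r was -0.01 (permutation p = 0.970, adjusted 0.970), rho was -0.03 (permutation p = 0.947, adjusted 0.947), and r was -0.55 without them.

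Fitted on the long-minus-short difference in place of Mbp, many genes moved: 18.0% of 15373 rose and 14.9% fell by edgeR, each slope being a log2 change per unit of that difference. Opalin fell, at -0.89 (edgeR adjusted p = 0.0203), as did Mobp, at -0.77 (0.0427), and Cnp, at -0.66 (0.0280). The 3 that fell stand against a background of 14.9%. Mbp had a slope of -0.65 (edgeR adjusted p = 0.0610), Mag -0.63 (0.0772), Cldn11 -0.59 (0.107), Mal -0.58 (0.152) and Mog -0.45 (0.164). Ugt8a alone among the members had a positive slope, 0.50 ± 0.33 (edgeR adjusted p = 0.266).

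With both Mbp and this difference in the model, the slope of Ugt8a on Mbp was 1.18 ± 0.22 (edgeR adjusted p = 0.0559), against 0.53 ± 0.31 with Mbp alone. The other members moved little, to slopes of 0.74 for Cnp (edgeR adjusted p = 0.0559) and 0.84 to 1.12 for Mog, Mag, Mobp, Cldn11, Mal and Opalin (0.0311 to 0.0481). The slope of Ugt8a on Mbp thus moved by more than that of any other member when the length term was added, and the cause was not tested.

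**Figure D5:**
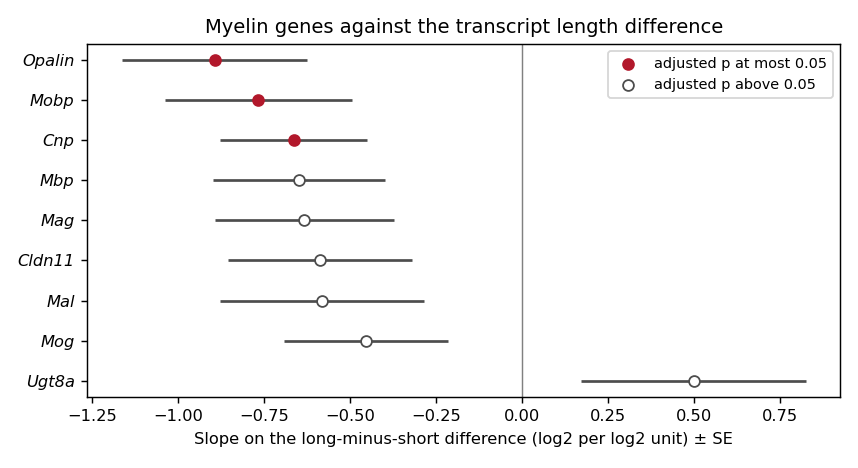
Slope of each myelin gene on the long-minus-short transcript difference (log2 change per unit of that difference), with bars for the standard error and filled points for an edgeR adjusted p of at most 0.05. Ugt8a lies above 0 at 0.50, and the other 8 genes lie below 0, from -0.45 for Mog to -0.89 for Opalin.

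Outside the members, the genes whose log2 level followed the mean of the 9 most closely over the 11 libraries were ranked by Pearson's r, given as a description. Highest were Pdlim2, a PDZ and LIM domain protein (r = 0.98), Aspa (0.96), Lpar1, a receptor for lysophosphatidic acid (0.94), Sst, the neuropeptide somatostatin (0.93), Bcas1 (0.93) and Prr18 (0.93). They were followed by 2900079G21Rik and Desi1 (0.93 each), and BC025920 (0.92). The lowest values were those of Snx4 (-0.95), Hist1h2be (-0.94), Ifit1, an interferon-induced gene (-0.94), Fam196b (-0.93) and Utp6 (-0.92). Sst ranged from 159 CPM to 406 CPM, and Pdlim2 from 4.50 CPM to 16.0 CPM.

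Fitted on Ugt8a in place of Mbp, 8 genes rose by edgeR, 0.0520% of those tested, and none was a member. They are given after their values were seen. Pde10a, the phosphodiesterase of striatal projection neurons, had a slope on Ugt8a of 1.68 ± 0.20 (edgeR adjusted p = 0.0158). Oprk1, the kappa opioid receptor, had 1.504 ± 0.20, Slc5a7, the choline transporter, 1.502 ± 0.20, Acvr1c 1.47 ± 0.21, Homer1 0.93 ± 0.13 and Klf10 0.86 ± 0.13. Tspan2, a tetraspanin of oligodendrocytes, had 0.64 ± 0.10 (edgeR adjusted p = 0.0295), and Dpy19l1 0.63 ± 0.10. On Mbp, Tspan2 had a slope of 0.35 ± 0.21 (edgeR adjusted p = 0.358).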

How the data were processed

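Poly(A) RNA libraries of 11 animals were analysed from the raw read counts per gene that the authors deposited. The submitters' processing notes name HTSeq 0.6.1, Bowtie2 2.1.0, TopHat2 2.0.14 and bcl2fastq 2.17.1.14, with the mm10 build. Per the labels' protocols, a stranded TruSeq kit, 200 ng of RNA and 12 PCR cycles were used. Strand setting and annotation release: not given in the sources used here. GENCODE M21 matched 52403 of 52550 identifiers. No column of the table was left unused.

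CPM used TMM-scaled library sizes (factors 0.908 to 1.06) from edgeR 4.0.16 (R 4.3.3), and each gene past the filter was fitted on the centred log2 CPM of Mbp with edgeR's quasi-likelihood test, with Benjamini-Hochberg adjustment over all genes but Mbp at 0.05. Intervals use 9 residual degrees of freedom. The mean deviation of a list uses log2(CPM + 0.5). Correlations used 100000 permutations, two-sided, in scipy 1.17.1 under Python 3.11.15. Alternatives were other scalings, no filter, DESeq2 1.42.0, a transcript-length term, each other member as covariate and leaving out each library. The fit was tested on simulated data.

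The members, the gene lists and the comparisons were chosen with earlier results of these data known. Named genes are the members, any gene of the oligodendrocyte, transcription factor and retinoid lists, for the lists of other cells the most abundant genes and those of extreme slope, and the 10 genes most and 5 least like the mean of the members. Single values of some genes of these lists are not reported here.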

Additional observations from a re-analysis of the deposited data

How the results depend on the processing

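No paired analysis was possible because the labels give neither groups nor replicate numbers. With Mbp as covariate 7 of the 8 other members rose. With Mog, Mag, Cnp, Cldn11 and Ugt8a as covariate, 1, 4, 4, 4 and 0 of the 8 others did, Mbp now among the 8. The count with Mbp was 0 to 7 when 1 library was left out. The 6 other mature genes numbered 21 by DESeq2, 3 with the length term, 0, 2, 3 and 1 with Mog, Cnp, Cldn11 and Ugt8a, and 0 to 12 without 1 library. Over all genes, 65 rose or fell with Mbp, 60 and 5. The count was 26 with raw totals, 672 by DESeq2 (493 rose, 179 fell) and 21 with the length term. It was 2, 13, 11, 28, 201, 8 and 249 with Mog, Mag, Cnp, Cldn11, Mal, Ugt8a and Opalin (187 rose, 62 fell with Opalin), and 0 to 183 without 1 library. These causes were not tested. Concordance was 0.90 without Ugt8a and 0.774 to 0.844 without 1 library, and the median spread was 0.262 to 0.324. The r of Mbp with the total count changed sign to 0.011 with raw totals and ran from -0.33 to 0.22 without 1 library. The r with the mitochondrial share then ran from -0.073 to 0.372, and with the length difference from -0.76 to -0.51. Of 184 member slopes under alternatives, slopes on other covariate genes among them, 147 kept their side of the threshold, 37 lost significance and none changed sign. The 147 include slopes of Ugt8a, which did not pass in the main fit either. All 18 member levels moved by less than 1 SD. With 11 libraries of unknown genotype, small slopes were not detectable. Depth was no limit for the members, whose lowest count was 283.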
